A study of Mus musculus with 2 samples.

Results

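The Ikaros family comprises 5 zinc finger transcription factor genes, and all of them had a row among the 24081 gene symbols of the count table. They were chosen by symbol: Ikzf1 (Ikaros), Ikzf2 (Helios), Ikzf3 (Aiolos), Ikzf4 (Eos) and Ikzf5 (Pegasus). The libraries hold RNA of regulatory T cells (Treg cells), the suppressive CD4+ T cells that need Foxp3, taken from C57BL/6 mice 5 weeks old, in a study of what SUMOylation, the coupling of small SUMO proteins to other proteins, does in these cells. The KO library came from Foxp3cre/wt mice with both alleles of the targeted SUMO pathway gene floxed, and the WT library from Foxp3cre/wt mice with 1 floxed and 1 wild-type allele. Both groups therefore carried the Foxp3-driven Cre with its YFP reporter, and in both the CD4+ YFP+ cells of lymph nodes and spleen were sorted. Foxp3 lies on the X chromosome, so a Foxp3cre/wt female is a mosaic that also keeps Treg cells without Cre, which the YFP gate leaves out. Each group has 1 library, made from pooled cells of 5 to 10 mice. No difference below has a replicate check, no test was run, and the 95% intervals cover counting error only. Since both samples carry a wild-type genotype label, every direction rests on their titles, KO and WT.

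Ikaros family proteins bind DNA through zinc fingers near the N-terminus and pair with one another through zinc fingers at the C-terminus, so the members present in a cell can form mixed dimers. Ikaros, Helios and Aiolos recruit chromatin complexes such as the NuRD histone deacetylase complex and can silence or sustain their targets, whereas Pegasus is the most divergent member in sequence. In Treg cells, Helios is known for keeping the suppressive state stable under inflammation, and Eos for acting with Foxp3 to silence genes of effector T cells. Ikaros was itself described as a SUMOylated protein, with SUMO attachment reducing its repressor activity.

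Helios RNA was lower in the KO library, and it was the member whose ratio lay furthest from 0. The RNAs of Aiolos and Eos were close to even, Ikaros RNA was modestly higher, and Pegasus RNA modestly lower. Only Ikzf2 passed 1.5-fold as scaled, and it no longer did once a trend with transcript GC content and length was removed.

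Ikzf2 had 4706 reads in the KO library and 3859 reads in the WT library, which was sequenced less deeply. Scaled to library size with TMM factors (counts per 1000000 reads, CPM), that is 203 CPM in the KO library and 322 CPM in the WT library. The level was 1.59-fold lower in the KO library (interval 1.52 to 1.65), a log2 ratio of -0.66 (-0.73 to -0.60). The counting interval lies wholly below 0, as it did for 25.6% of the 10899 measured genes, those with a mean of at least 20 raw reads over both libraries. Of all measured genes, 468 had a lower ratio than Ikzf2, or 4.29%. Ikzf2 was the 1 member at least 1.5-fold lower, where 5.51% of measured genes were, and none of the members was at least 1.5-fold higher, where 7.43% were. In bulk RNA of sorted cells, fewer Helios-positive cells and less Ikzf2 RNA per cell cannot be told apart.

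Ikzf1, the founding member and a regulator of lymphocyte development, had 24524 reads in the KO library and 10224 reads in the WT library. Its scaled level was 1059 CPM in the KO library and 854 CPM in the WT library, 1.24-fold higher in the KO library (1.21 to 1.27; log2 ratio 0.31). Its interval lay wholly above 0, as did those of 29.1% of measured genes, and 20.5% of measured genes had a higher ratio. The difference is well outside counting error at this depth, but it is a modest one within the spread of all measured genes, whose log2 ratios had an SD of 0.46 and a central 95% from -0.91 to 0.89.

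Ikzf3, which is abundant in B cells and in several activated T cell states, had 9249 reads in the KO library and 4478 reads in the WT library. That is 399 CPM in the KO library and 374 CPM in the WT library, a fold of 1.07 (1.03 to 1.11). Ikzf4 had 3157 reads in the KO library and 1510 reads in the WT library, or 136 and 126 CPM, a fold of 1.08 (1.02 to 1.15). Aiolos and Eos RNA thus stood close to each other and near the middle of all genes: 40.0% of measured genes had a higher ratio than Ikzf3 and 37.9% a higher one than Ikzf4. Under total-count scaling both ratios were still smaller, with log2 values of 0.02 for Ikzf3 and 0.04 for Ikzf4.

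Ikzf5 had 1387 reads in the KO library and 881 reads in the WT library, the fewest of the family. Its level was 59.9 CPM in the KO library and 73.5 CPM in the WT library, 1.23-fold lower in the KO library (1.13 to 1.34; log2 ratio -0.30). Of measured genes, 16.7% had a lower ratio. Its count is the least certain of the family: in the GENCODE M21 annotation, 4652 of the 5721 bases of its exon model are shared with exons of Pstk, a kinase gene of selenocysteine synthesis on the opposite strand. The strand setting of the counting is not stated in the sources, and without strand, reads of that stretch cannot be told apart. Pstk itself had 183 reads in the KO library and 91 reads in the WT library (log2 ratio 0.06, -0.31 to 0.44).

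**Figure D1:**
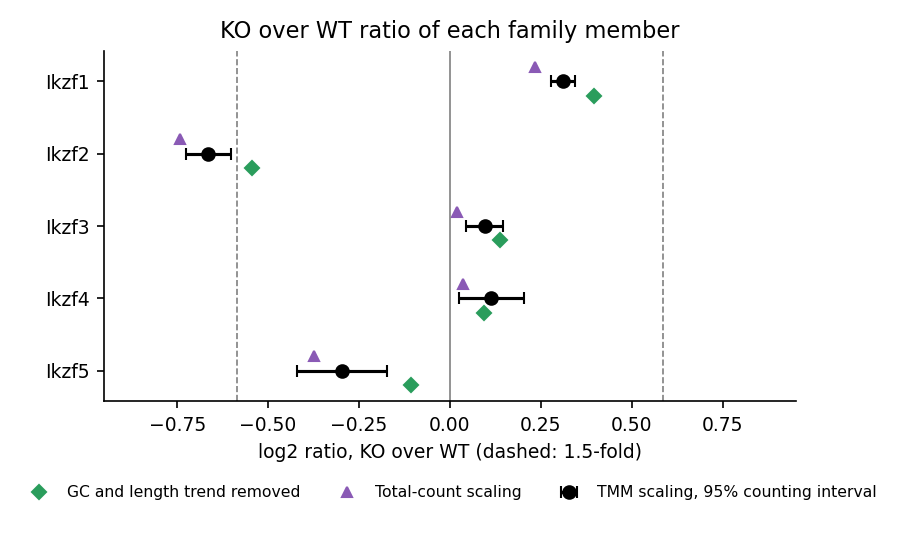
log2 ratio of KO over WT (x axis) for the 5 genes (y axis). Black circles show TMM-scaled counts with their 95% counting interval, triangles total-count scaling, and diamonds the value after removal of the GC and length trend. Dashed lines mark 1.5-fold; Ikzf2 is the only gene beyond one, and its diamond (-0.54) falls inside it.

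The family as a whole took nearly the same share of each library, while its make-up differed. The 5 genes together held 0.181% of gene reads (exact binomial interval 0.179 to 0.183) in the KO library and 0.180% (0.177 to 0.182) in the WT library. With TMM scaling their summed level was 1.06-fold higher in the KO library (1.04 to 1.08). Within the reads of the 5 genes, which need no scaling between libraries, Ikzf2 made up 10.9% in the KO library (10.6 to 11.2) and 18.4% in the WT library (17.9 to 18.9). Ikzf1 made up 57.0% in the KO library (56.5 to 57.5) and 48.8% in the WT library (48.1 to 49.5). The shares of Ikzf3, 21.5% in the KO library and 21.4% in the WT library, had overlapping intervals, and so did those of Ikzf4, 7.34% and 7.21%. Ikzf5 held 3.22% in the KO library (3.06 to 3.40) and 4.20% in the WT library (3.94 to 4.49). For each read of Ikzf2 there were 5.21 reads of Ikzf1 in the KO library (5.05 to 5.38) and 2.65 in the WT library (2.55 to 2.75).

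**Figure D2:**
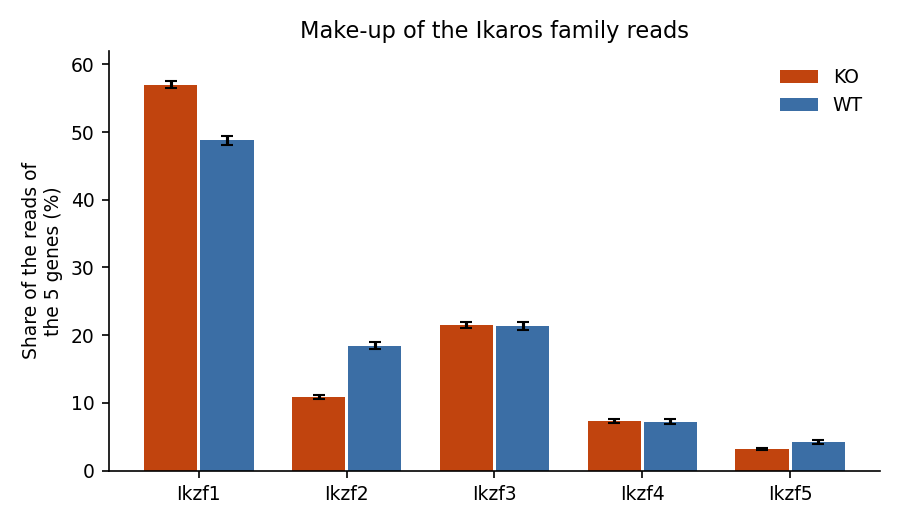
Share of each gene in the summed reads of the 5 genes (y axis, %), KO left and WT right for each gene; bars start at 0 and error bars are exact 95% binomial intervals for counting error. Ikzf2 stands at 10.9% in the KO library against 18.4% in the WT library, and Ikzf1 at 57.0% against 48.8%.

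Compared per length (RPKM, the CPM divided by the exon model in kb), Ikaros was the most abundant family RNA in both libraries. Its level was 183 RPKM in the KO library and 148 in the WT library. Aiolos came next, at 45.6 in the KO library and 42.7 in the WT library. Ikaros thus stood 4.02-fold above Aiolos in the KO library and 3.46-fold above it in the WT library. Helios and Eos changed places: in the KO library Helios stood at 17.5 RPKM and Eos at 22.7, whereas in the WT library Helios stood at 27.7 and Eos at 21.03. The level of Helios was accordingly 0.770 times that of Eos in the KO library (0.735 to 0.805) and 1.32 times it in the WT library (1.24 to 1.40). Pegasus stood at 10.5 in the KO library and 12.9 in the WT library, the lowest values over full exon models. Over the 1069 bases of its exon model not shared with Pstk, the same reads would give 56.0 in the KO library and 68.8 in the WT library, above Aiolos, so its place in the order rests on how the shared stretch was counted. The order of Helios and Eos depends on the length used. The exon model of Ikzf2 is 11613 bases long and that of Ikzf4 5995 bases, most of it outside the coding part (1596 and 2058 bases); per coding length, Helios stood above Eos in both libraries, 1.92-fold in the KO library and 3.30-fold in the WT library.

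**Figure D3:**
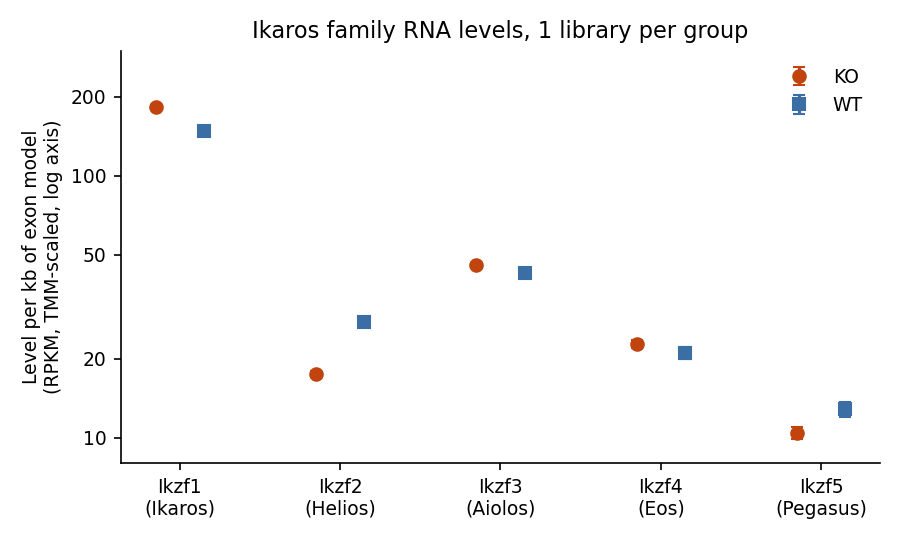
Level in RPKM, TMM-scaled (y axis, log scale), for each gene, KO library as circles to the left and WT library as squares to the right; bars are exact 95% Poisson intervals, mostly smaller than the symbols. Helios lies below Eos in the KO library (17.5 and 22.7) and above it in the WT library (27.7 and 21.03).

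Ratios of KO over WT were larger for GC-rich transcripts, and the order of the members followed this in part. Across 10844 measured genes, which are not independent replicates and share both libraries, its Spearman correlation with GC content was 0.41. Ikzf2 and Ikzf5, the lower members, have the most AT-rich transcripts of the family, with 40.1% and 40.3% GC. With measured genes cut into 10 equal groups by GC content, both lie in the lowest group, whose median log2 ratio was -0.18. Ikzf1 (46.9%) and Ikzf3 (47.3%) lie in the fourth group (median -0.04) and Ikzf4 (52.0%) in the seventh (0.05). Within that lowest-GC group of 1085 genes, 4.24% had a lower ratio than Ikzf2 and 6.73% were at least 1.5-fold lower, whereas 31.1% had a lower ratio than Ikzf5. With the smooth trend on GC content and length removed, Ikzf2 was 1.46-fold lower (log2 ratio -0.54), just under 1.5-fold, in a table where 5.16% of genes were at least 1.5-fold lower and 5.26% at least 1.5-fold higher. Ikzf5 was then at -0.11 and Ikzf1 at 0.40, with 5.89% of genes lower than Ikzf2 and 11.5% higher than Ikzf1. The part of GC content in these ratios was not tested beyond that removal.

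**Figure D4:**
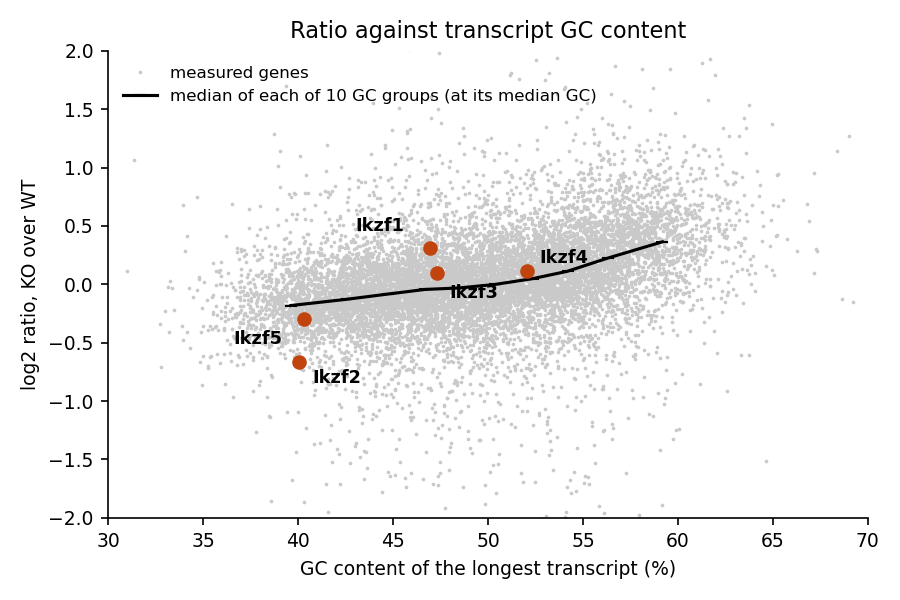
log2 ratio of KO over WT (y axis, cropped at -2 and 2) against GC content of the longest transcript (x axis, %) for measured genes (grey), with the median of each of 10 GC groups (black line) and the 5 members (red). Ikzf2 at 40.1% GC lies far below the median of its group (-0.18), Ikzf5 at a like GC content close to it, and Ikzf1 above the line.

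Ikzf5 shares its start region with another gene. The gene lies on chromosome 7 of GRCm38 (mm10), 131388652 to 131410521 on the minus strand, and Acadsb, which encodes a mitochondrial enzyme of branched-chain fatty acid breakdown, begins 79 bases away on the other side. Acadsb had 793 reads in the KO library and 506 reads in the WT library, a log2 ratio of -0.30 (-0.47 to -0.14), set beside -0.30 for Ikzf5. With the GC and length trend removed, Acadsb was at -0.17 and Ikzf5 at -0.11. The part of the shared start region in these ratios was not tested. The gene on the other side of Ikzf5, 2310057M21Rik, had 307 reads in the KO library and 114 reads in the WT library. Its log2 ratio was 0.48 (0.16 to 0.80), of the opposite sign. The promoter window of Ikzf5 from RefSeq (build GRCm38.p6, chr7:131410429-131410728, minus strand, 250 bases before to 50 after its start) is shown because it holds the starts of both genes. Capitals mark GGGAA, the core that Ikaros family zinc fingers are known to bind, searched on both strands (GGGAA or TTCCC).

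Ikzf5 promoter: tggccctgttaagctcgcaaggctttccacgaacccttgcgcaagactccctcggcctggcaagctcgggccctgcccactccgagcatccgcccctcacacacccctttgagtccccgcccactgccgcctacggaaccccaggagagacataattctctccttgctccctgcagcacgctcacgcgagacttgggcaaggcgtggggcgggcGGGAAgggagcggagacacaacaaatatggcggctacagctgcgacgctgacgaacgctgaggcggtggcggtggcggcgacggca

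The window holds 1 match, 65.7% GC and 27 CpG dinucleotides. Such a match is common: 62.7% of the 32851 promoter windows in the RefSeq table hold at least 1, and a match is a description of the letters, not a bound site.

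Ikzf1, on chromosome 11 (11685003 to 11772926, plus strand), has 2 start windows in that table. Both begin past the first base of the gene given here, so neither covers that end of it. Upstream and downstream name the 2 windows relative to each other. The windows are shown because they differ sharply in composition and because Ikzf1 had the highest ratio of the members. The counts, which are per gene, do not say which start was used.

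Ikzf1 upstream start, chr11:11685675-11685974, plus strand: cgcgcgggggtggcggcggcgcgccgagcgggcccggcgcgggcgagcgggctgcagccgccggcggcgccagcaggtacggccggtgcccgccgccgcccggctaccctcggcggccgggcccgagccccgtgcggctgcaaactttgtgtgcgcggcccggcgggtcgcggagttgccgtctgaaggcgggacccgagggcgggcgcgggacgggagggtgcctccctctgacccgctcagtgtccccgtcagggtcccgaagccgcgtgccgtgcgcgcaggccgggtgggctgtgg

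Ikzf1 downstream start, chr11:11689927-11690226, plus strand: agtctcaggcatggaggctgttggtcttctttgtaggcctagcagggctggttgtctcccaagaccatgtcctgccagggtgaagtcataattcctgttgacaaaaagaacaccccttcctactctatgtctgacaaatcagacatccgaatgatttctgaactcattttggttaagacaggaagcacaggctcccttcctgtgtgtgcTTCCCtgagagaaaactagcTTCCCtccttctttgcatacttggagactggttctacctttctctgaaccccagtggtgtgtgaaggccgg

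The upstream window is 81.3% GC with 52 CpG dinucleotides and no match. The downstream window is 49.0% GC with 2 CpG dinucleotides and 2 matches, both as TTCCC. Of the other members, Ikzf2 lies on chromosome 1 (69531214 to 69687245, minus strand), Ikzf3 on chromosome 11 (98464902 to 98546031, minus strand) and Ikzf4 on chromosome 10 (128630843 to 128645991, minus strand).

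Most genes next to the other members had few reads or ratios near 0. Beside Ikzf2, Erbb4 was listed at 0 in both libraries, and Spag16, with 34 reads in the KO library and 22 reads in the WT library, had an interval from -1.14 to 0.52. Beside Ikzf4, the ribosomal protein gene Rps26 had a log2 ratio of -0.36 (5753 reads in the KO library and 3829 in the WT library) and the sulfite oxidase gene Suox one of -0.01. Fignl1 beside Ikzf1 was at -0.02 (-0.41 to 0.38), and Grb7 and Zpbp2 beside Ikzf3 at -0.37 and -0.05, both with intervals across 0. With 2 libraries a pattern is a single ratio, so likeness to a member is likeness of that ratio. Among genes of similar scaled count, Rab8b (log2 ratio -0.64) and Smpdl3a (-0.58) came nearest to Ikzf2, out of 469 candidates. Cyfip2 (0.31) and the forkhead factor gene Foxo1 (0.31) came nearest to Ikzf1 out of 94, Papola and Cdc42se1 to Ikzf3, Ier5 and Rasa1 to Ikzf4, and Gnl3l and Ndufa9 to Ikzf5, each within 0.01 of its member.

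Of the partner genes through which Ikaros proteins act, most lay within 1.5-fold, many of them above 0. Of all measured genes, 7.43% were at least 1.5-fold higher and 5.51% at least 1.5-fold lower. With the GC and length trend removed these shares were 5.26% and 5.16%. Of 14 subunits of NuRD, the chromatin remodelling and histone deacetylase complex that Ikaros, Helios and Aiolos recruit, 13 lay within 1.5-fold, 1 was higher and none lower, with a median log2 ratio of 0.04 beside 0.01 for all measured genes. The metastasis-associated subunit gene Mta1 was at 0.59 (5656 reads in the KO library and 1938 in the WT library) and the remodelling ATPase gene Chd3 at 0.58 (29312 and 10132 reads), just on either side of 1.5-fold. Mta3 and Gatad2a were at 0.34 and 0.32. With the GC and length trend removed none of the 14 passed 1.5-fold. Of 9 SWI/SNF subunits, another remodelling complex found with Ikaros, 1 was higher and 8 lay between (median 0.29). That gene was Arid1a, at 0.82 with 33969 reads in the KO library and 9966 reads in the WT library; Smarcc2, Smarcd1 and the ATPase gene Smarca4 were at 0.45, 0.35 and 0.31. After removal of the GC and length trend Arid1a was at 0.52, under 1.5-fold, and the list median at 0.12.

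Among 10 other corepressors and deacetylases, 1 was higher, 9 lay between and none was lower (median 0.19), beside 7.43% higher and 5.51% lower among all measured genes. The class II deacetylase gene Hdac5 was the higher one, with 1079 reads in the KO library and 361 reads in the WT library, a log2 ratio of 0.63 (0.46 to 0.80). Its relative Hdac7 was at 0.43, and the corepressor genes Ncor1 and Sin3b were at 0.38 and 0.35. Without the GC and length trend Hdac5 was at 0.22, none of the 10 passed 1.5-fold, and the list median was at 0.041. The cereblon ubiquitin ligase, through which thalidomide-type drugs destroy Ikaros and Aiolos proteins in human cells, had 6 measured genes, all within 1.5-fold, 5 of them below 0 (median -0.30). The substrate receptor gene Crbn was at -0.34 (1634 reads in the KO library and 1071 in the WT library), Cul4b at -0.32 and Rbx1 at -0.30, while the accessory gene Dda1 was at 0.38. Removal of the GC and length trend took that median to -0.15.

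Treg cell genes listed beside Helios split. Not all of them mark thymic origin, so their counts do not measure it. Of 8 genes, 3 were at least 1.5-fold lower, 5 lay between and none was higher (median -0.22). Of all measured genes, 5.51% were at least 1.5-fold lower and 7.43% at least 1.5-fold higher. The same 3 were lower when the GC and length trend was removed, where 5.16% of all genes were. The list was chosen with earlier results of these data known, so its count is a description only. Nrp1, the neuropilin receptor that is used together with Helios to mark thymus-derived Treg cells, had 5311 reads in the KO library and 4840 reads in the WT library, a log2 ratio of -0.82 (-0.87 to -0.76). The integrin chain gene Itgae (CD103) was at -2.17 (230 and 538 reads) and the ecto-enzyme gene Nt5e (CD73) at -1.24 (2291 and 2806 reads). Tnfrsf18, which encodes GITR, was at 0.25. Of the 8 genes, Tnfrsf18 and Gpr83 (0.18) alone were above 0.

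Genes reported as acted on by Ikaros family members in T cells lay on both sides of 0. Of 12 listed genes, 10 were measured, 2 of them higher, 4 lower and 4 between. Of all measured genes, 7.43% were at least 1.5-fold higher and 5.51% at least 1.5-fold lower. The median of the 10 targets, 0.06, has no stable sign: it was -0.017 under total-count scaling and -0.16 over listed genes with at least 1 read in both libraries. Notch3, 1 of the 2 higher genes, passed the floor of 20 reads only through the KO library. Ifng, 1 of the 4 lower genes, passed it only through the WT library. Il2, a target that Ikaros, Helios, Aiolos and Eos have each been reported to silence, had 1 read in the KO library and 2 reads in the WT library, so a difference was not detectable at this depth. The T helper genes Ifng, with 18 reads in the KO library and 31 reads in the WT library, and Tbx21, with 83 and 85 reads, were at -1.66 (-2.66 to -0.85) and -0.97 (-1.44 to -0.53). The prostaglandin receptor gene Ptger2 was at -0.94, with 259 and 258 reads, and Prdm1, which encodes the repressor Blimp-1, at -0.61. Prdm1 was no longer 1.5-fold lower with the GC and length trend removed (-0.51). Notch3, a receptor gene that Ikaros represses in thymocytes, had 38 reads in the KO library and 5 reads in the WT library (1.84, with a wide interval of 0.63 to 3.68), and Foxp3 was at 0.89. Of 7 genes that the family controls in lymphoid precursors, 3 were measured, and all lay within 1.5-fold: Dntt at 0.46 (-0.48 to 1.52), Cd79a at 0.13 and Cd8a at 0.00 (143 reads in the KO library and 74 in the WT library). Dntt, with 35 reads in the KO library and 13 in the WT library, passed the floor only through the KO library. Igll1 and Rag2 were listed at 0 in both libraries.

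**Figure D5:**
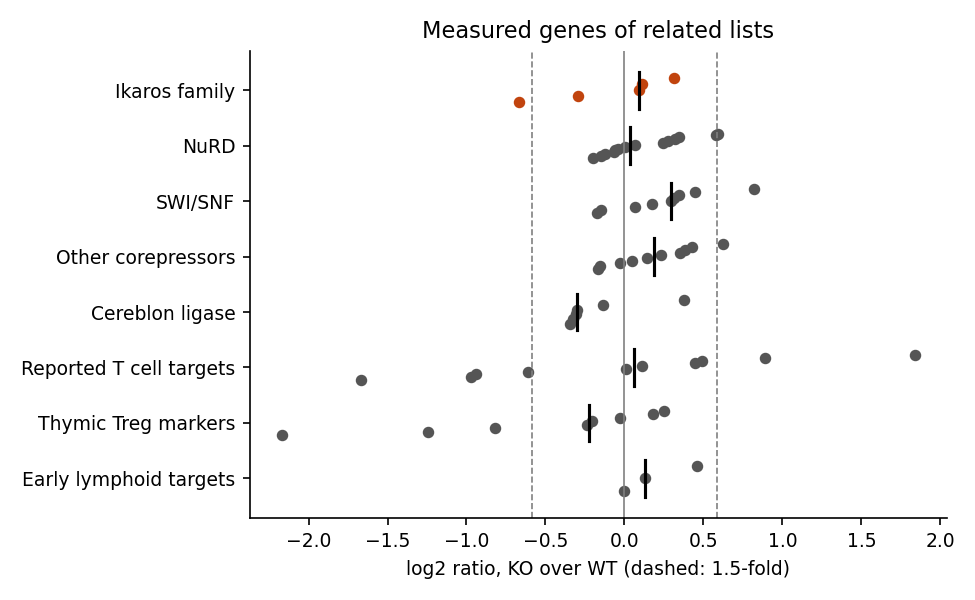
log2 ratio of KO over WT (x axis) of each measured gene (points) in the family and in 7 related lists (rows); black ticks are list medians and dashed lines 1.5-fold. NuRD subunits lie on both sides of 0 (median 0.04) and cereblon ligase genes mostly below it (-0.30). The row named thymic Treg markers, not all of which mark thymic origin, reaches from -2.17 to 0.25.

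Marker genes of other cell types were detected in both libraries, most of them at low levels. The libraries held 23789264 reads in genes (KO) and 11662867 (WT), 76.6% of counted entries in each. The Treg genes Cd4, Cd3e, Cd3d, Foxp3, Il2ra, Ctla4 and Tnfrsf18 were detected in both. With Ikzf2 they make a list of 8, of which 1 was at least 1.5-fold higher, 2 lower and 5 between. Of all measured genes, 7.43% were higher and 5.51% lower. Ctla4, at 88.8 CPM in the KO library and 143 CPM in the WT library, had a log2 ratio of -0.69 (-0.78 to -0.59). With the GC and length trend removed Ctla4 was at -0.47, and of the 8 genes 1 was higher and 0 were lower. Ikzf1 and Ikzf3 are also strongly expressed in B cells. The 10 B cell markers, all detected, summed to 138 CPM in the KO library and 172 CPM in the WT library. Of these 10, 3 were at least 1.5-fold lower and none higher, where 5.51% of measured genes were lower and 7.43% higher. With the GC and length trend removed 1 of the 10 was lower, where 5.16% of genes were. The myeloid markers, 8 of them in the table, summed to 401 and 434 CPM, led by Csf1r (5440 reads in the KO library and 3192 in the WT library) and Lyz2 (2924 and 1474 reads). Csf1r stood at 235 CPM in the KO library and 266 CPM in the WT library, above Ctla4 and Tnfrsf18 in both. The CD8 T cell pair summed to 41.5 and 33.6 CPM, the 5 NK cell markers to 7.43 and 6.43, the 6 dendritic cell markers to 26.5 and 20.7, the plasma cell markers to 2.59 and 2.75, and the erythroid markers to 5.57 and 14.3. Of the 6 thymocyte markers (165 and 148 CPM), which are mostly Themis, a gene that mature T cells also express, Rag2 and Ptcra were at 0. The part of these cells in the Ikaros family ratios was not tested.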

How the data were processed

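Gene-level raw read counts of 2 libraries, KO and WT, were deposited by the authors as whole numbers that were not normalized. Alignment and counting used TopHat2 2.0.3 and HTSeq on mm10, per the submitters' processing notes; annotation, strand setting and read length are not stated there. Of its 24086 rows, 5 count reads outside genes (23.4% of counted entries in each library) and stayed out of library sizes. Samples were grouped by title.

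Counts were scaled (CPM and RPKM here are TMM-scaled) with TMM factors (edgeR 4.0.16, R 4.3.3; 0.974 for KO and 1.03 for WT). Log2 ratios use a pseudocount of 1, folds and intervals none. Intervals are exact (Clopper-Pearson, conditional binomial, or Poisson) at 95%; reads carry no molecular identifiers, so intervals treat reads as independent molecules and cover counting error only. Measured genes have a mean of 20 or more raw counts. A call means 1.5-fold or more. No test was run, since each group has 1 library; the computation was checked on simulated data. Lengths, GC content and positions come from GENCODE M21 (GRCm38, the same assembly as mm10), with GC and length for 99.5% of measured genes; the trend was removed with a smooth additive model (mgcv 1.9.3). DESeq2 1.42.0 gave size factors only.

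The members and lists were chosen with earlier results of these data known. Named genes are all members, up to 4 measured genes per list with the largest absolute ratio, the 2 genes nearest in ratio to each member, its neighbours, and markers by reads; other genes named were chosen after their values were seen. Alternatives were other scalings, pseudocounts, floors, folds and lengths, and removal of the GC and length trend. The targeted gene and 1 gene of the corepressor list are not reported here. Protein sequences were not used here, and of the family only Ikzf1 and Ikzf5 were matched in the RefSeq promoter table.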

Additional observations from a re-analysis of the deposited data

How the results depend on the processing

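No paired analysis was possible because there is 1 library per group. With upper-quartile scaling, DESeq2 size factors, a pseudocount of 5 or none, every member ratio stayed within its counting interval. The numbers of members called stayed the same, and every list median kept its sign. Total-count scaling gave log2 ratios of 0.23 for Ikzf1, -0.74 for Ikzf2 and 0.018 for Ikzf3, and -0.041 for the NuRD median. It leaves out the TMM factors, so every ratio fell by nearly the same amount. Ikzf4 was then at 0.04, Ikzf5 at -0.37 and the median of all genes at -0.06. Removing the GC and length trend gave 0.40 for Ikzf1, -0.54 for Ikzf2 and -0.11 for Ikzf5, leaving 0 members at least 1.5-fold lower, and list medians of 0.041 for other corepressors, -0.15 for the cereblon ligase and 0.12 for SWI/SNF. Over these settings Ikzf2 ranged from -0.74 to -0.54 and kept its sign, as did every other member. With every gene that had at least 1 read in both libraries, the median of reported T cell targets was -0.16. The share of genes at least 1.5-fold lower was 3.41% with a mean of at least 100 counts and 10.1% with at least 1 read in both, against 5.51%.

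Per length, the shares of Ikzf1, Ikzf2, Ikzf3, Ikzf4 and Ikzf5 in the family were 65.6%, 6.26%, 16.3%, 8.13% and 3.74% in the KO library and 58.6%, 11.0%, 16.9%, 8.34% and 5.10% in the WT library. Per coding length, the levels in the same order were 660, 127, 263, 66.2 and 47.6 RPKM in the KO library and 532, 202, 246, 61.3 and 58.5 in the WT library. Over exon bases not shared with Pstk, a choice made after seeing the data, Ikzf5 stood at 56.0 RPKM in the KO library and 68.8 RPKM in the WT library. Where values moved, apart from total-count scaling and these changes of length, threshold or gene filter, the cause was not tested. Spread between mice was not measured, so no setting speaks to it.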
